A study of Mus musculus with 12 samples.

Results

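The genes of the proteasome subunits were followed in 12 arrays of cultured mouse keratinocytes. The members were the genes whose symbol starts with Psma, Psmb, Psmc, Psmd or Psme and a number, each read from probe sets that carry 1 symbol only and from the probe set with the highest mean signal. The rule matched 44 symbols, and Psmc3ip and Psme3ip1 were set aside because their products are not proteasome subunits. This left 42 members of 22180 genes measured: 13 of the core particle (6 of the alpha ring and 7 of the beta ring), 3 of the immunoproteasome, 2 tissue-specific core subunits and 24 of the regulatory complexes. The 24 were 6 ATPases and 3 other subunits of the base, 8 lid subunits, 3 chaperones of base assembly and 4 activators. The symbols were chosen by name, and the mean signal over all 12 arrays chose the probe set of a gene with several.

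The proteasome degrades proteins that have been tagged with ubiquitin. Its core particle is a barrel of stacked rings, with the proteolytic sites on the beta subunits Psmb5, Psmb6 and Psmb7 inside and the alpha subunits forming the gated ends. The regulatory particle sits on an end of the barrel: its lid removes ubiquitin chains, and the ATPases of its base unfold the substrate and thread it into the core. Under interferon, cells build an immunoproteasome in which Psmb8, Psmb9 and Psmb10 take the places of Psmb5, Psmb6 and Psmb7, and the product peptides feed antigen presentation on MHC class I. The proteasome and autophagy are the main routes of protein breakdown in the cell, and autophagy needs Atg7, the enzyme that activates the small proteins conjugated to the growing autophagosome.

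Every group was homozygous for Atg7 f/f, in which sites for a recombinase flank part of the gene. Cells without the K14::Cre recombinase were autophagy competent and are called wt, and cells with it were autophagy deficient and are called KO. The recombinase is driven by the promoter of keratin 14, a keratin of basal keratinocytes, so only cells that used this promoter lost Atg7. Keratinocytes of both genotypes were grown in KGM-2 medium and received a sham treatment or paraquat at 20 µM. Paraquat is a herbicide that cycles electrons to oxygen inside cells and makes superoxide, and the RNA was from 48 h later. Each of the 4 combinations of genotype and treatment had 3 arrays. The series' design text speaks of triplicates that are biological, without naming their animals, and p-values here measure no more than the spread among the arrays. The age of the animals is not given in the sources used here.

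The labels were first checked on Atg7 itself. Its signal was 286 to 356 in wt sham, 103 to 111 in KO sham, 442 to 457 in wt paraquat and 96 to 148 in KO paraquat, so no KO array reached a wt array. Array medians lay between 42 and 45, and precision is limited by having 3 arrays a group. The arrays wt sham 2 and KO paraquat 3 lay nearer to the other treatment on the first principal component than the rest of their groups, and counts are given below also without both. Keratinocyte markers (7 of 8 measured) summed to 23942 to 26159 in wt sham and 20378 to 20923 in wt paraquat, and to 24463 to 26677 in KO sham and 21382 to 23087 in KO paraquat. Of these, Krt15 lay under the array median throughout. Melanocyte markers (7 of 7, Tyr under the array median throughout) summed to 382 to 468 with sham and 894 to 965 with paraquat in wt, and to 451 to 497 and 885 to 938 in KO. Mlana was the largest part of the paraquat sums, at 53 to 73 with sham and 368 to 398 with paraquat in wt. In KO it read 62 to 77 and 340 to 392. Sox10 lay under the array median in all sham arrays, and its treatments overlapped in both genotypes. The part of these marker shifts in the results below was not tested. In RNA from whole cultures, fewer cells of a type and less RNA per cell cannot be told apart.

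The promoters of 35 of the 42 members were found in RefSeq (GRCm38.p6), each as a window of 250 bases before to 50 after the gene's start. Psmc1 and Psmd8 are shown because they were higher after paraquat in both genotypes, Psmb8 because it was lower in both, and Psmb5 because its product is the one that Psmb8 replaces. The 250 bases before the start, on the gene's own strand, lie at chr12:100109952-100110201 (+ strand), chr7:29180674-29180923 (- strand), chr17:34197945-34198194 (+ strand) and chr14:54617996-54618245 (- strand). Capitals mark a CCAAT box in Psmc1 and a match to TGACNNNGC, the core of the antioxidant response element, in Psmb5.
Psmc1: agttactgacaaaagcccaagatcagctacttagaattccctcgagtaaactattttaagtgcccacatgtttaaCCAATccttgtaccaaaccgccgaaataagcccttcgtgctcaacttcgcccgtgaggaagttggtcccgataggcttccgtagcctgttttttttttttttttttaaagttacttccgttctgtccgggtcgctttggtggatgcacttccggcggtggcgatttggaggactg
Psmd8: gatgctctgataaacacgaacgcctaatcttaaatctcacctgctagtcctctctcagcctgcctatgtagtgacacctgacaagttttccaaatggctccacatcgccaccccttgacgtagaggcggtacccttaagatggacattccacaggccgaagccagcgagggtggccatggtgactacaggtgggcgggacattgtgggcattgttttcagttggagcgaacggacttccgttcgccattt
Psmb8: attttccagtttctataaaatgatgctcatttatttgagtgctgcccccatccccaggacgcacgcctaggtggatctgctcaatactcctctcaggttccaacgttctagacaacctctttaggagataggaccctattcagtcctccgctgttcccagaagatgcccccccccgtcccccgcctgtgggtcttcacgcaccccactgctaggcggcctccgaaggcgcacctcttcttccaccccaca
Psmb5: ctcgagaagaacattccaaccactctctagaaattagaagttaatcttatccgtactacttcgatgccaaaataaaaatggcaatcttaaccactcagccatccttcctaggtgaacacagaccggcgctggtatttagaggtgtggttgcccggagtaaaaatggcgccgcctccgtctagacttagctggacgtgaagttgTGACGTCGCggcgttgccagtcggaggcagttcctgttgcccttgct
Matches were searched on both strands of the whole 300-base window, and none of the 3 motifs searched lies within another. TGACNNNGC, the element bound by NRF1 and NRF2 with a small Maf protein, was found in 6 member promoters (17.1%), those of Psmb5, Psmb6, Psmc6, Psmd12, Psmd9 and Psme4, against 14.0% of the windows of all 27025 genes. CCAAT, the box bound by the NF-Y factor, was found in 14 (40.0%, against 41.1%). These were Psma1, Psma2, Psma3, Psma6, Psma7, Psmb3, Psmb9, Psmb11, Psmc1, Psmc2, Psmd4, Psmd10, Psmd14 and Psme3. GAAA repeated after a gap of any 2 letters, the pattern of interferon response elements, was found in 4 (11.4%, against 3.99%), those of Psmb3, Psmd4, Psmd9 and Psme1. A match is a description of the letters and not a binding site.

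In wt cells 11 of the 42 members (26.2%) changed with paraquat, against 29.2% of all genes, by limma's test with Benjamini-Hochberg adjustment over all 22180 genes and a threshold of 0.05. They did not move as a block: Psma6, Psmc1, Psmd8, Psmd11 and Psmd13 rose and Psmc2, Psmb8, Psme1, Psmd4, Psmd5 and Psmb10 fell, against 14.9% of all genes higher and 14.3% lower. In KO cells 6 members (14.3%) changed, with Psmc1, Psmd8 and Psmd13 higher and Psmc6, Psmc4 and Psmb8 lower, against 27.1% of all genes (14.5% higher and 12.6% lower). The members called in both genotypes were Psmc1, Psmd8, Psmd13 and Psmb8, each in the same direction. Without wt sham 2 and KO paraquat 3 the counts were 9 in wt and 5 in KO. In KO the split of directions moved with the scaling, to 1 higher and 7 lower after a second quantile normalization and 6 higher and 0 lower after centring on the array median. The wt count fell to 6 without wt paraquat 3. The KO count fell to 3 without KO sham 3 or without wt paraquat 2, and to 1 without KO paraquat 1 or KO paraquat 2. The share of all genes called in each of these alternative fits is not given beside these counts. A move can therefore not be read as particular to the members.

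**Figure D1:**
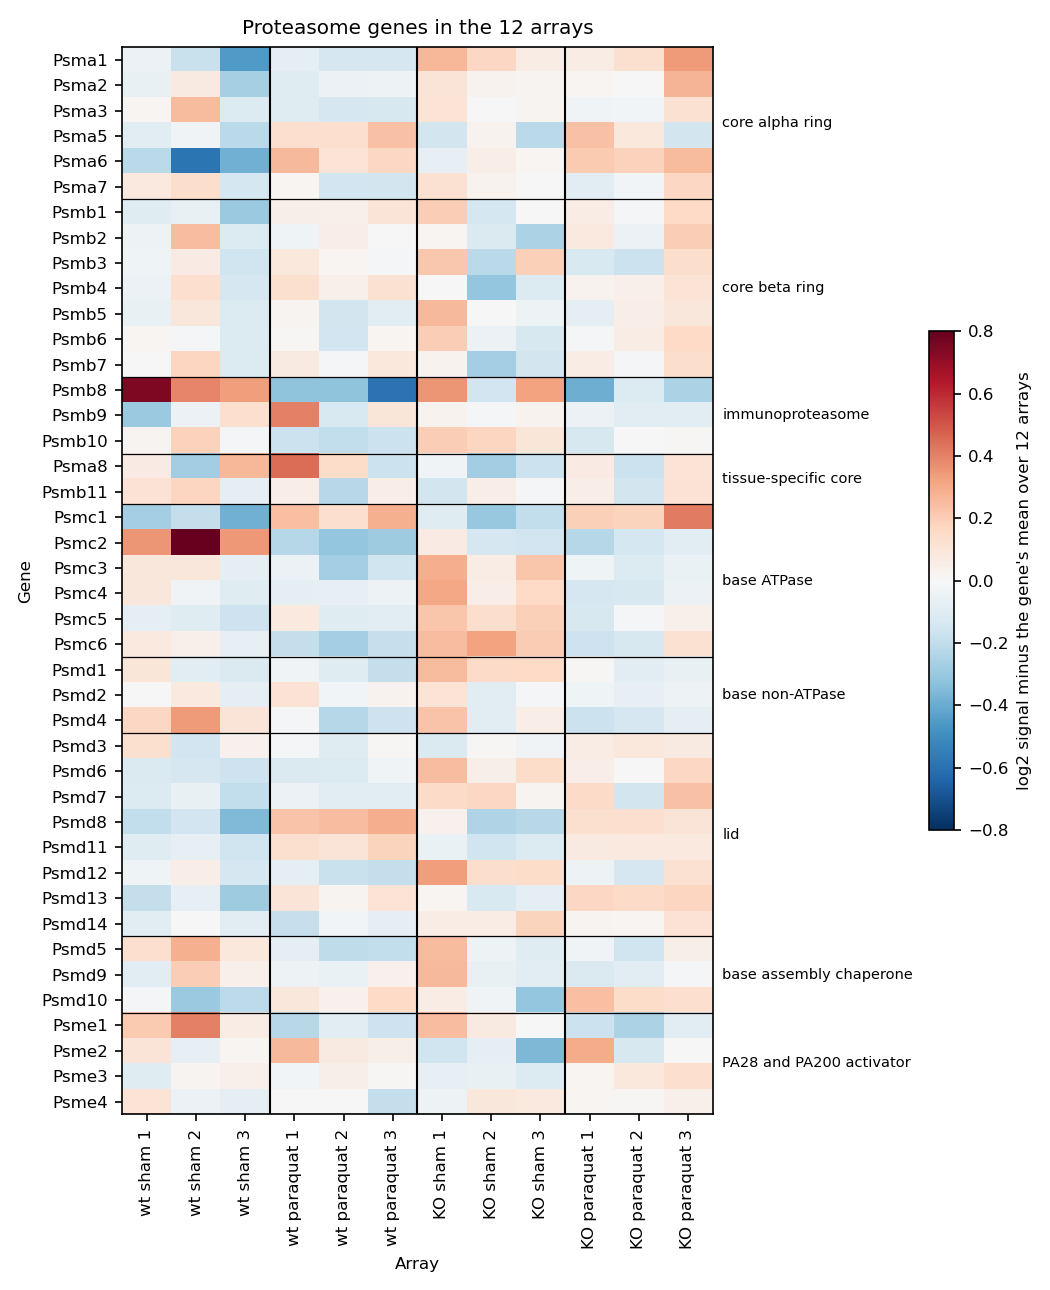
Each row is a proteasome gene, grouped by subunit class, and each column an array. The colour is the log2 signal minus the gene's mean over the 12 arrays. Psmc2 is high in the 3 wt sham arrays (1326 to 1808 in signal) and between 838 and 1087 elsewhere. Test results are not marked in the figure.

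The median size of the paraquat change (log2, without sign) was 0.11 over the members in wt, against 0.16 over all genes and 0.26 over the 12375 genes whose mean log2 signal lay above the median of all probe sets. The KO values were 0.16 over the members, 0.16 over all genes and 0.24 over the brighter genes. Of the brighter genes 46.5% passed the threshold in wt and 42.6% in KO. Among the members 38 were this bright, and 28.9% of them passed in wt and 15.8% in KO. With their signs, the medians were 0.01 over the members and 0.01 over all genes in wt, and the members' median turned to -0.01 after a second quantile normalization. In KO they were -0.03 and 0.01, and the members' median turned to 0.03 after centring on the array median. Arrays of the treatments did not overlap in 15 members in wt, against 37.6% of all genes, and in 18 members in KO, against 37.2%.

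**Figure D2:**
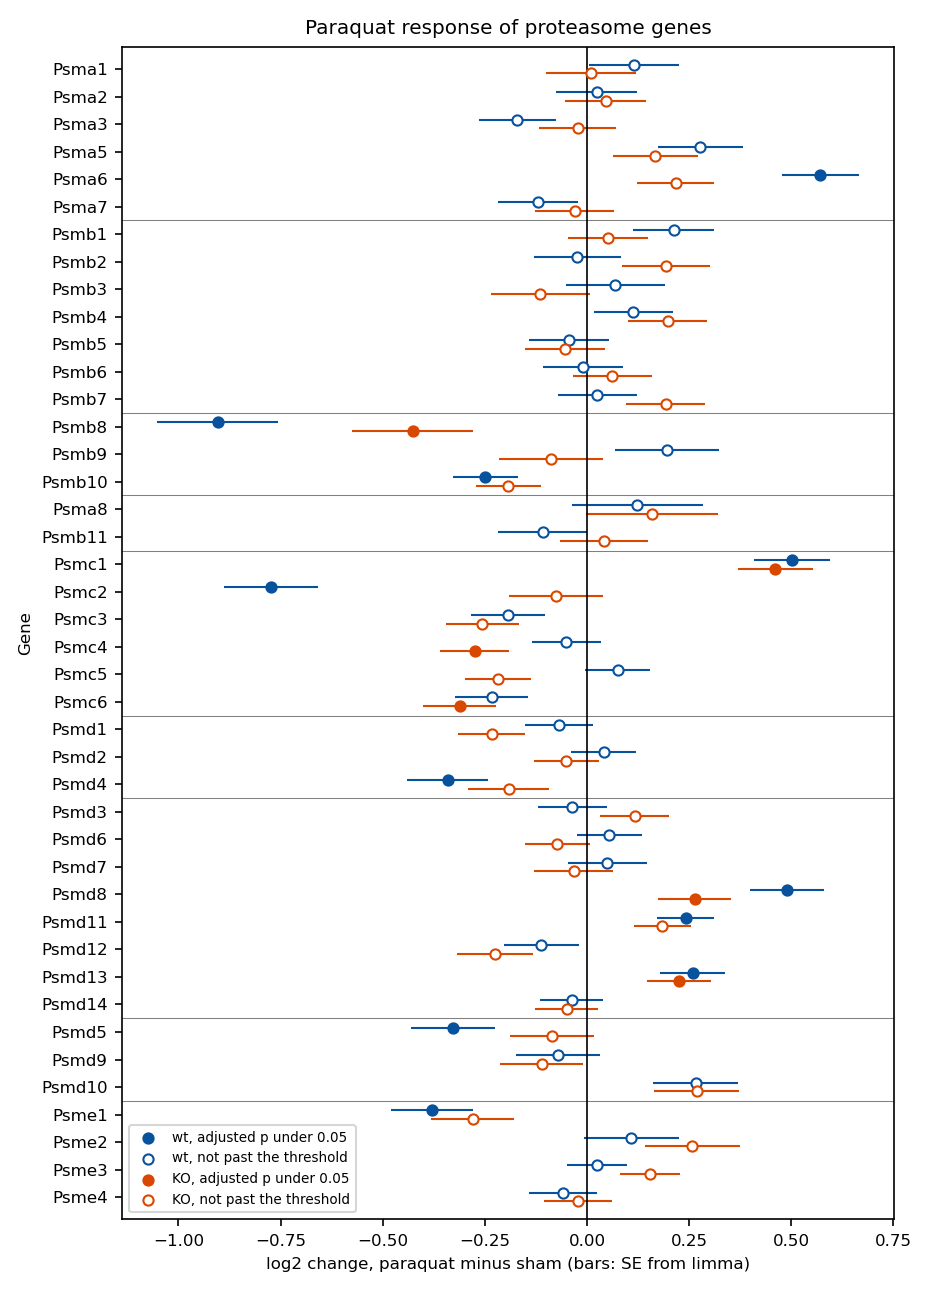
Points give the log2 change of each proteasome gene, paraquat minus sham, in wt (blue) and KO (orange), with bars for limma's SE, and filled points are those with an adjusted p under 0.05. The filled points lie on both sides of 0, from Psmb8 at -0.90 to Psma6 at 0.57 in wt, and from Psmb8 at -0.43 to Psmc1 at 0.46 in KO.

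Of the 6 alpha ring genes, whose products form the gate and the docking surface of the core, Psma6 alone passed the test for paraquat, and in wt alone. Psma6 read 665, 515 and 590 in wt sham and 924, 831 and 863 in wt paraquat. In KO it read 735, 799 and 779 with sham and 893, 876 and 918 with paraquat. Its lowest arrays were those of wt sham, and the treatments did not overlap in either genotype. The rise was 1.49-fold in wt (log2 0.57, SE 0.09, limma adjusted p = 0.000364), and the KO change of 0.22 (SE 0.09, adjusted p = 0.113) did not pass. The difference between the Psma6 responses, KO minus wt, was -0.35 (SE 0.13, adjusted p = 0.206). Psma4, the seventh alpha gene, is no member because its probe sets carry a second symbol.

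The 7 beta ring genes, which include the catalytic subunits, passed no test in any of the 5 comparisons. Psmb5, the chymotrypsin-like subunit, read 543, 603 and 524 in wt sham, 575, 512 and 532 in wt paraquat, 677, 568 and 550 in KO sham and 536, 586 and 601 in KO paraquat. Psmb6, the caspase-like subunit, read 517, 508 and 473 in wt sham, 513, 459 and 517 in wt paraquat, 585, 494 and 467 in KO sham and 505, 533 and 571 in KO paraquat. Psmb7, the trypsin-like subunit, read 1144, 1281 and 1056 in wt sham, 1195, 1129 and 1210 in wt paraquat, 1160, 943 and 1028 in KO sham and 1186, 1130 and 1253 in KO paraquat. For all 3 catalytic genes the sham and paraquat arrays overlapped in both genotypes. Over the 7 genes the log2 changes with paraquat ran from -0.04 to 0.21 in wt and from -0.11 to 0.20 in KO, and the 95% intervals of single genes reached from -0.26 to 0.42 and from -0.38 to 0.42.

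Of the 3 immunoproteasome genes 2 fell in wt and 1 in KO, where 14.3% and 12.6% of all genes fell. Psmb8, the inducible counterpart of Psmb5, had the largest fall of all members in wt. Psmb8 read 134, 105 and 101 in wt sham and 64, 64 and 53 in wt paraquat. In KO it read 102, 72 and 100 with sham and 61, 74 and 67 with paraquat. The wt treatments stood clear of each other, while in KO the lowest sham array (72) lay within the paraquat arrays. Psmb8 fell 1.87-fold in wt (log2 -0.90, SE 0.15, limma adjusted p = 0.000352) and 1.34-fold in KO (-0.43, SE 0.15, adjusted p = 0.0482). The wt call held without each array in turn. The KO call held in 5 of the 10 alternative settings, and the losses included both rescalings, only the arrays compared and the replicate block. It was also lost without any 1 of 9 arrays, all but wt sham 1, KO sham 2 and wt paraquat 3. The difference between the responses was 0.48 (SE 0.21, adjusted p = 0.296).

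Psmb10, the inducible counterpart of Psmb7, read 149, 167 and 146 in wt sham, 130, 128 and 130 in wt paraquat, 168, 165 and 157 in KO sham and 134, 147 and 148 in KO paraquat. Treated arrays lay below sham arrays in both genotypes. It fell in wt (log2 -0.25, SE 0.08, adjusted p = 0.0298), and the KO change of -0.19 (SE 0.08, adjusted p = 0.0943) did not pass. The wt call held in 6 of the 10 alternative settings, and the losses included both rescalings and only the arrays compared. It was also lost without wt sham 2 or any wt paraquat array. Psmb9, the inducible counterpart of Psmb6, read 32, 38 and 43 in wt sham, 52, 36 and 42 in wt paraquat, 40, 39 and 40 in KO sham and 38, 37 and 37 in KO paraquat. Psmb9 had a mean below 45, the highest array median, so its level was not shown to be above background. Its wt change of 0.20 and KO change of -0.09 did not pass (adjusted p = 0.307 and 0.69).

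To compare inducible and constitutive genes at the level of RNA, the log2 signal of each constitutive gene was subtracted from that of its inducible counterpart. This was done within each array, and the change of the difference between groups was read. Proteins were not measured, so the exchange of subunits itself was not followed. With 3 arrays against 3, the exact permutation test cannot go below 0.1 (2-sided), so none of the 12 comparisons could pass 0.05, and the Benjamini-Hochberg values over them ran from 0.2 to 0.9. Psmb8 minus Psmb5 moved by -0.86 with paraquat in wt and by -0.37 in KO, with no overlap of arrays in either (exact p = 0.1 each). In wt the highest paraquat array was at -3.0 and the lowest sham array at -2.522. In KO these were at -2.985 and -2.98, a gap so narrow that rounding of the signals could close it. Psmb10 minus Psmb7 moved by -0.28 in wt and -0.39 in KO, and by 0.24 between sham KO and sham wt, also with no overlap (exact p = 0.1 each). The last 2 values hold changes of Psmb7 itself that were not called, 0.19 with paraquat in KO and -0.15 between sham KO and sham wt. Psmb9 minus Psmb6 is not given, because the level of Psmb9 was not shown to be above background.

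**Figure D3:**
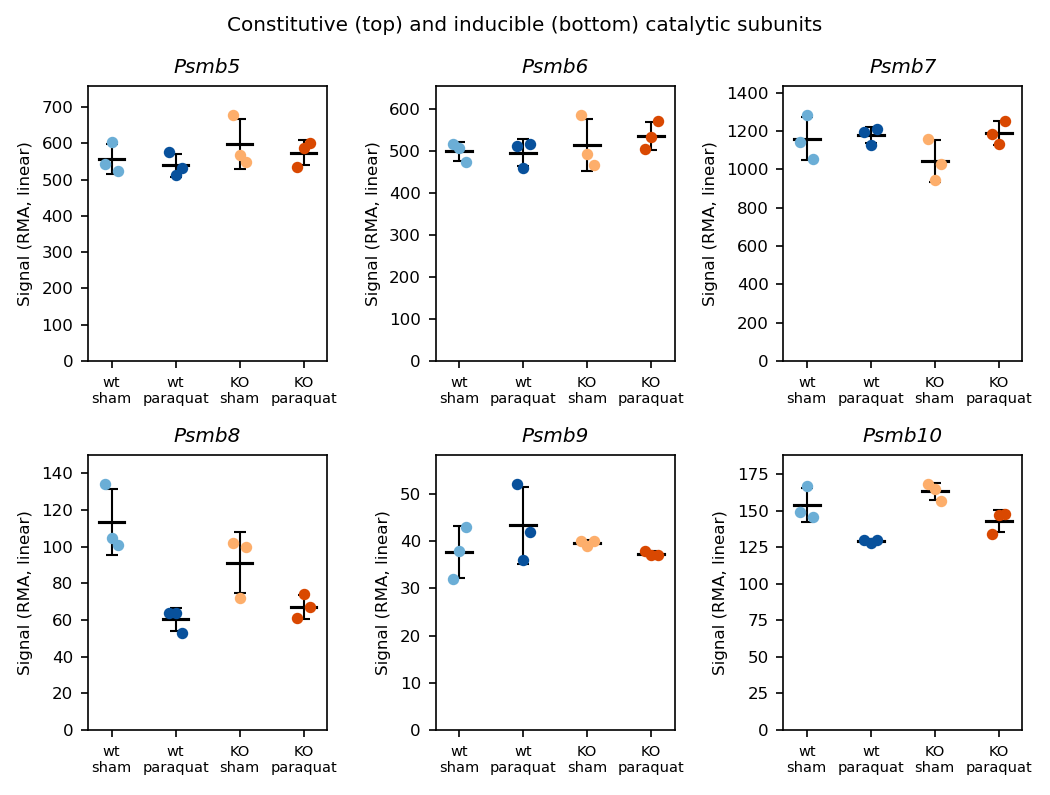
Linear signals in each array of the constitutive catalytic genes (top) and the inducible gene that takes the place of each (bottom), with group means and bars of 1 SD (n = 3), each axis starting at 0. Psmb8 lies between 101 and 134 in wt sham and between 53 and 64 in wt paraquat, while the groups of Psmb5 overlap.

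Leukocytes express the immunoproteasome strongly, so their markers are given beside it. The 9 measured of 10 leukocyte markers summed to 800 to 847 in wt sham and 2055 to 2133 in wt paraquat, and to 819 to 913 in KO sham and 1450 to 1724 in KO paraquat. Most of the sum was Cd68, a lysosomal protein, at 559 to 610, 1778 to 1870, 585 to 688 and 1214 to 1482. Ptprc, Adgre1, Lyz2 and Tyrobp lay under the array median in all arrays, and Cd3e, Itgam and Csf1r in all arrays of the groups other than wt paraquat. The marker sum, mostly Cd68, rose with paraquat while Psmb8 fell, and the part of leukocytes in the Psmb8 result was not tested. Fibroblast markers (8 of 8, with Dcn and Lum under the median in each array) summed to 317 to 373 in wt sham and 372 to 435 in wt paraquat. In KO they summed to 310 to 318 and 326 to 341. Among them Pdgfra read 30 to 45 and 76 to 117 in wt, and 26 to 38 and 57 to 59 in KO. Endothelial markers (6 of 6, with Cdh5, Vwf and Emcn under the median in each) summed to 200 to 238 with sham and 330 to 476 with paraquat. Kdr was the largest part of the paraquat sums, at 47 to 62 with sham and 197 to 295 with paraquat in wt. In KO it read 45 to 73 and 137 to 162.

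The activators open the gate of the core without ATP. Psme1, a subunit of the interferon-inducible PA28, read 473, 539 and 425 in wt sham, 350, 386 and 364 in wt paraquat, 485, 429 and 409 in KO sham and 362, 342 and 384 in KO paraquat. Its treated arrays lay below the sham arrays in both genotypes. The fall in wt passed the test (log2 -0.38, SE 0.10, limma adjusted p = 0.0109), and the KO change of -0.28 (SE 0.10) missed the threshold (adjusted p = 0.056). Psme2, its partner subunit, read 102, 91 and 96 in wt sham, 114, 100 and 98 in wt paraquat, 85, 90 and 74 in KO sham and 117, 87 and 95 in KO paraquat. The Psme2 arrays overlapped between treatments, and its changes of 0.11 in wt and 0.26 in KO did not pass, so the partners were not called together.

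Psme3, which forms a nuclear activator of its own, read 406, 442 and 446 in wt sham, 428, 449 and 438 in wt paraquat, 416, 417 and 402 in KO sham and 439, 460 and 477 in KO paraquat. Psme4, the PA200 activator, read 857, 770 and 756 in wt sham, 794, 798 and 697 in wt paraquat, 775, 849 and 840 in KO sham and 805, 802 and 819 in KO paraquat. Psme3 did not overlap between treatments in KO. Neither gene passed in any comparison, with paraquat changes of 0.02 and 0.16 for Psme3 and of -0.06 and -0.02 for Psme4 in wt and KO.

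The ATPase ring of the base held opposite changes among its 6 genes, Psmc1 to Psmc6. Psmc1, an ATPase whose tail helps to open the gate of the core, read 820, 868 and 761 in wt sham, 1171, 1090 and 1206 in wt paraquat, 927, 803 and 865 in KO sham and 1133, 1124 and 1320 in KO paraquat. Every treated array lay above every sham array. Psmc1 rose 1.42-fold in wt (log2 0.50, SE 0.09, limma adjusted p = 0.000895) and 1.38-fold in KO (0.46, SE 0.09, adjusted p = 0.00197), and both calls held under the 10 alternative settings and without each of the 12 arrays in turn. Its promoter, shown above, carries a CCAAT box that begins 175 bases before the start. The box was also found in the windows of Psmc2 and Psmd4, which fell in wt.

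Psmc2, the ATPase beside Psmc1 in the ring, set wt sham apart from the other groups. It read 1328, 1808 and 1326 in wt sham, 887, 838 and 856 in wt paraquat, 1087, 947 and 936 in KO sham and 889, 944 and 983 in KO paraquat. The wt sham arrays were the 3 highest, and the KO treatments overlapped. Psmc2 fell 1.71-fold with paraquat in wt (log2 -0.77, SE 0.12, limma adjusted p = 0.000156), while the KO change was -0.07 (SE 0.12, adjusted p = 0.707). With sham it was 1.49-fold lower in KO than in wt (-0.57, SE 0.12, adjusted p = 0.00637), a comparison that shares the wt sham arrays with the wt response. Without wt sham 2, its highest array, this became -0.43 (adjusted p = 0.0152), and the call was lost with only the arrays of the groups compared (adjusted p = 0.0675).

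Psmc2 was also the member whose responses differed between the genotypes: KO minus wt was 0.70 (SE 0.16, limma adjusted p = 0.0438). That is 1 of 42 members (2.38%), against 2.29% of all genes (1.39% higher and 0.897% lower). The call held without wt sham 2 (0.55, adjusted p = 0.0448) or without wt sham 1, wt sham 3 or KO sham 1. It was lost without any 1 of the other 8 arrays (adjusted p 0.0663 to 0.106), and without wt sham 2 and KO paraquat 3 together (0.52, adjusted p = 0.0906). The mean over both Psmc2 probe sets gave 0.65 (adjusted p = 0.0893), and the call was also lost with the replicate block. The second Psmc2 probe set, tested among all probe sets, changed by -0.70 with paraquat in wt (adjusted p = 0.0124), by -0.11 in KO and by -0.40 between sham KO and sham wt (adjusted p = 0.245). Its difference between the responses was 0.59 (limma adjusted p = 0.352). In the same fit the difference of the brighter probe set, 0.70, did not pass either (adjusted p = 0.112).

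**Figure D4:**
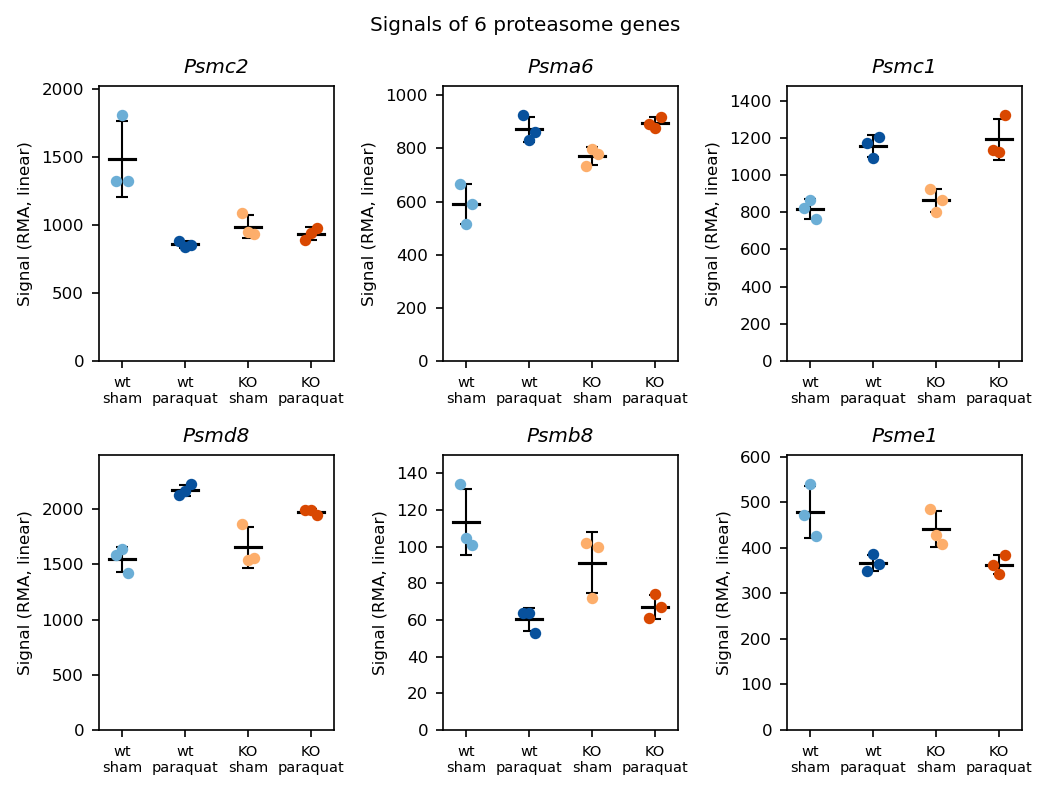
Linear signals in each array of 6 proteasome genes, with group means and bars of 1 SD (n = 3), each axis starting at 0. Psmc2 is 1326 to 1808 in wt sham and 838 to 1087 in the other groups, and Psmc1 is 761 to 927 with sham and 1090 to 1320 with paraquat.

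Psmc4 and Psmc6, further ATPases of the ring, fell with paraquat in KO. Psmc4 read 854, 785 and 750 in wt sham, 760, 766 and 777 in wt paraquat, 990, 831 and 893 in KO sham and 729, 733 and 776 in KO paraquat. Psmc6 read 1325, 1291 and 1199 in wt sham, 1100, 1039 and 1106 in wt paraquat, 1489, 1569 and 1445 in KO sham and 1121, 1151 and 1369 in KO paraquat. The KO treatments did not overlap for either gene, and KO paraquat 3 was the highest KO treated array of both. The KO falls were 1.21-fold for Psmc4 (log2 -0.28, SE 0.08, adjusted p = 0.0264) and 1.24-fold for Psmc6 (-0.31, SE 0.09, adjusted p = 0.0185). The wt changes of -0.05 and -0.23 did not pass (adjusted p = 0.729 and 0.0692), and the differences between the responses were -0.22 and -0.08 (adjusted p = 0.407 and 0.834). Psmc4 was not called in KO after centring on the array median or without KO sham 1, KO sham 3, KO paraquat 1 or KO paraquat 2, and Psmc6 not after centring or without KO sham 2, KO paraquat 1 or KO paraquat 2. With only the arrays of the groups compared neither was called (adjusted p = 0.0581 for Psmc4 and 0.055 for Psmc6).

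Of the other base subunits, Psmd4, a ubiquitin receptor, fell 1.27-fold in wt (log2 -0.34, SE 0.10, limma adjusted p = 0.0183), from 647 to 761 with sham to 514 to 594 with paraquat. In KO its change was -0.19 (adjusted p = 0.188) and the treatments overlapped. Psmd1 and Psmd2, the large scaffold subunits, passed no test, with changes of -0.07 and 0.04 in wt and of -0.23 and -0.05 in KO. Psmd5, a chaperone that holds ATPases during base assembly, fell 1.25-fold in wt (log2 -0.33, adjusted p = 0.0272) with a KO change of -0.09. The other base chaperones, Psmd9 and Psmd10, were not called, although Psmd10 had 0.27 in both genotypes with no overlap of treatments in either (adjusted p = 0.0742 and 0.0759). The Psmd4 call was lost without wt sham 2, wt paraquat 2 or wt paraquat 3, and the Psmd5 call without wt sham 1, wt sham 2, wt paraquat 2 or wt paraquat 3. Each of these calls held in 9 of the 10 alternative settings.

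The lid genes that changed with paraquat all rose: 3 of 8 in wt (Psmd8, Psmd11 and Psmd13) and 2 of 8 in KO (Psmd8 and Psmd13), where 14.9% and 14.5% of all genes rose. Psmd8, the subunit that joins the lid last in assembly, read 1585, 1637 and 1420 in wt sham, 2126, 2160 and 2222 in wt paraquat, 1864, 1540 and 1555 in KO sham and 1990, 1991 and 1949 in KO paraquat. Psmd13, a structural lid subunit, read 436, 476 and 410 in wt sham, 535, 506 and 538 in wt paraquat, 503, 457 and 473 in KO sham and 560, 553 and 561 in KO paraquat. For both genes the treated arrays lay above the sham arrays in each genotype. Psmd8 rose 1.40-fold in wt (log2 0.49, SE 0.09, limma adjusted p = 0.000833) and 1.20-fold in KO (0.26, SE 0.09, adjusted p = 0.0438), and Psmd13 rose 1.20-fold in wt (0.26, adjusted p = 0.0237) and 1.17-fold in KO (0.23, adjusted p = 0.0493). The KO calls of Psmd8 and Psmd13 each held in 6 of the 10 alternative settings. The losses included a second quantile normalization, only the arrays compared and the replicate block. Both KO calls were also lost without any KO paraquat array, any wt paraquat array, wt sham 1, KO sham 2 or KO sham 3. Psmd13 in wt held in 9 of the 10 settings and was lost without wt sham 1, wt sham 3, wt paraquat 1 or wt paraquat 3.

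Psmd11, a lid subunit known to raise assembly of the whole proteasome when it is abundant, rose 1.18-fold in wt (log2 0.24, SE 0.07, limma adjusted p = 0.0181), from 1118 to 1191 with sham to 1339 to 1410 with paraquat. In KO it read 1117 to 1203 and 1314 to 1318, a change of 0.18 with no overlap (adjusted p = 0.0692). The wt call of Psmd11 was lost without wt sham 3 or wt paraquat 3. The other 5 lid genes, among them Psmd14, the enzyme that cuts off ubiquitin chains, had wt changes from -0.11 to 0.05 and KO changes from -0.22 to 0.12, and none passed.

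Psma5 and the tissue-specific subunits Psma8 (testis) and Psmb11 (thymus) were dim. Their signals ran from 22 to 30, 26 to 43 and 19 to 25 over all arrays, all below 45, the highest array median, so their levels were not shown to be above background. None of the 3 passed a test.

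Between the genotypes with sham treatment, 5 of the 42 members (11.9%) differed, against 10.2% of all genes. Psma6, Psmc5, Psmd6 and Psma1 were higher in KO (4.58% of all genes were) and Psmc2 was lower (5.67% were). After centring on the array median, Psma6 and Psmc2 were left. Arrays did not overlap in 11 members, against 22.7% of all genes. The count fell to 1, Psmc2, without wt sham 2, with or without KO paraquat 3. It was 2 without wt sham 3 or any 1 of the KO sham arrays, and 3 without wt paraquat 1 or wt paraquat 2. With only the arrays of the groups compared, limma called 0 members, with 9 at an unadjusted p under 0.05. The share of all genes called in these alternative fits is not given here, so these moves cannot be read as particular to the members. The median over the members was 0.06, against -0.01 over all genes.

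Psmc5, a base ATPase, read 405, 400 and 380 in wt sham, 497, 470 and 488 in KO sham, 450, 399 and 401 in wt paraquat and 391, 422 and 439 in KO paraquat. Psmd6, a lid subunit, read 531, 522 and 512 in wt sham, 682, 592 and 637 in KO sham, 531, 532 and 563 in wt paraquat and 595, 576 and 645 in KO paraquat. Psma1, of the alpha ring, read 620, 568 and 468 in wt sham, 773, 721 and 668 in KO sham, 611, 586 and 584 in wt paraquat and 670, 700 and 812 in KO paraquat. In sham cells every KO array lay above every wt array for all 3 genes. The differences were 1.23-fold for Psmc5 (log2 0.30, SE 0.08, adjusted p = 0.032), 1.22-fold for Psmd6 (0.29, SE 0.08, adjusted p = 0.0374), 1.31-fold for Psma1 (0.39, SE 0.11, adjusted p = 0.0388) and 1.31-fold for Psma6 (0.39, SE 0.09, adjusted p = 0.0178). Without wt sham 2 the adjusted p of these 4 rose to 0.0682, 0.0855, 0.0759 and 0.0686.

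Between the genotypes under paraquat, 0 of the 42 members differed by limma's test, with 1 at an unadjusted p under 0.05, against 0.55% of all genes (0.0992% higher and 0.451% lower). The count was also 0 in each alternative fit. Single-gene changes, KO minus wt, ran from -0.20 to 0.29, and their 95% intervals from -0.49 to 0.53. Arrays did not overlap in 14 members, against 17% of all genes. Psma1 had the largest difference of the members (log2 0.29, SE 0.11, adjusted p = 0.344). Psmc2, at 838 to 887 in wt and 889 to 983 in KO, differed by 0.12 (adjusted p = 0.768).

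Genes that build or regulate the proteasome changed in both directions with paraquat. Of 12 measured of 14 such genes, 3 rose and 4 fell in wt and 2 rose and 2 fell in KO, where 29.2% and 27.1% of all genes changed. Psmg1, a chaperone of alpha ring assembly, fell 1.62-fold in wt and 1.44-fold in KO (log2 -0.69 and -0.52, adjusted p = 0.00017 and 0.00182). Psmf1, an inhibitor that binds the core, rose 1.33-fold and 1.53-fold (adjusted p = 0.0106 and 0.00076), and Txnl1, a thioredoxin bound to the lid, rose 1.32-fold and 1.20-fold (adjusted p = 0.00134 and 0.0248). Uchl5, a deubiquitinase of the base, rose 1.23-fold with paraquat in wt (adjusted p = 0.0104) and was 1.41-fold higher in KO than in wt with sham (adjusted p = 0.00144).

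Upstream of the proteasome, 10 of 16 listed genes for ubiquitin and its shuttle factors were measured, of which 1 rose and 4 fell in wt, 3 rose and 4 fell in KO, and 5 were lower in KO than in wt with sham. Of all genes 14.9% rose and 14.3% fell in wt, 14.5% rose and 12.6% fell in KO, and 5.67% were lower in KO with sham. Uba6, an enzyme that activates ubiquitin, fell 1.99-fold in wt and 1.33-fold in KO (log2 -0.99 and -0.41, adjusted p = 5.32e-07 and 0.00139), and these responses differed (0.59, adjusted p = 0.0158). Ubqln2, a shuttle that carries ubiquitinated proteins to the proteasome, fell 1.77-fold in wt (log2 -0.82, adjusted p = 7.81e-06), with a KO change of -0.05 and a difference of 0.77 (adjusted p = 0.00604). Zfand5, which binds the proteasome and raises its activity, rose 1.33-fold in wt and 1.58-fold in KO (adjusted p = 0.002 and 5.17e-05). Ubqln1, a shuttle of the same family, rose 1.22-fold in KO (adjusted p = 0.0142) and was 1.37-fold lower in KO than in wt with sham (adjusted p = 0.00239).

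Transcription of proteasome genes is raised by NRF1, encoded by Nfe2l1, when proteasome activity falls short. Nfe2l1 read 1027, 1107 and 1106 in wt sham, 412, 396 and 400 in wt paraquat, 586, 633 and 663 in KO sham and 426, 481 and 491 in KO paraquat. Like Psmc2 it was highest in the 3 wt sham arrays, and the treatments did not overlap in either genotype. Nfe2l1 fell 2.68-fold in wt (log2 -1.42, SE 0.08, limma adjusted p = 3.84e-08) and 1.35-fold in KO (-0.43, SE 0.08, adjusted p = 0.00142), and the responses differed (0.99, SE 0.12, adjusted p = 0.000745). With sham it was 1.72-fold lower in KO than in wt (-0.78, adjusted p = 0.000113).

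Of 10 measured of 11 genes of the NRF1 pathway, 2 rose and 2 fell in each genotype, where 29.2% of all genes changed in wt and 27.1% in KO. Maff, a small Maf partner, rose 1.62-fold in wt (adjusted p = 0.000178) and was 1.49-fold lower in KO than in wt under paraquat (log2 -0.57, adjusted p = 0.0331). Nfyb, a subunit of the NF-Y factor that binds the CCAAT box, rose 1.75-fold in wt and 1.60-fold in KO (adjusted p = 0.000211 and 0.00108). Nfyc, another NF-Y subunit, fell 1.40-fold in KO (adjusted p = 0.00064), with a wt change of -0.17 (adjusted p = 0.172), and was 1.31-fold higher in KO than in wt with sham (adjusted p = 0.00861).

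Downstream of the immunoproteasome, 10 of 11 genes of MHC class I processing were measured, of which 2 rose and 5 fell in wt and 2 rose and 4 fell in KO. Of all genes 14.9% rose and 14.3% fell in wt, and 14.5% rose and 12.6% fell in KO. Erap1, which trims peptides in the endoplasmic reticulum, fell 3.34-fold in wt and 2.90-fold in KO (log2 -1.74 and -1.54, adjusted p = 1.65e-07 and 1.01e-06). H2-K1, a class I heavy chain, fell 1.83-fold and 1.35-fold (adjusted p = 1.19e-05 and 0.00382), and B2m, the light chain, fell 1.71-fold and 1.34-fold (adjusted p = 1.77e-05 and 0.00281). Nlrc5, the transactivator of class I and immunoproteasome genes, went the other way and rose 1.90-fold and 2.04-fold (adjusted p = 5.73e-06 and 4.03e-06).

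The interferon list, 15 measured of 17, had 2 genes higher and 6 lower in wt and 6 lower in KO after paraquat, where 14.9% of all genes rose and 14.3% fell in wt and 12.6% fell in KO. Irf1, a transcription factor that drives Psmb8 and Psmb9, fell 1.84-fold in wt and 2.15-fold in KO (log2 -0.88 and -1.11, adjusted p = 0.000536 and 0.000103). Ifngr1 and Ifnar2, receptor chains for interferon gamma and for type I interferons, fell 1.89-fold and 1.60-fold in wt and 1.85-fold and 1.43-fold in KO (adjusted p = 1.63e-05 and 0.000125 in wt, and 2.97e-05 and 0.00141 in KO). Mx1, an interferon-induced antiviral gene counted among those higher in wt, read 11 to 36 over all arrays, below every array median, so its level was not shown to be above background in any group. After paraquat, called genes thus went both ways in each pathway list, except the interferon list in KO, with 0 higher and 6 lower. Each list was described by its counts alone.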

How the data were processed

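Total RNA of 12 samples was labelled and hybridised to Affymetrix arrays, 1 array per sample. The authors deposited a table with 1 intensity for each probe set and array. The submitters' processing notes name RMA and Affymetrix Expression Console 1.3.1.187. The values were whole numbers from 3 to 17695 and were read as RMA signals on a linear scale, and their log2 was taken for the tests. The sources used here do not give filters or a genome build for the probe sets.

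The platform annotation names 1 gene symbol for 23521 of the 41345 probe sets, several for 1814 and none for 16010. Gene identifiers of 23328 of the 23521 matched RefSeq's mouse genes (GRCm38.p6), and 0 symbols changed. The annotation can be old. The probe set with the highest mean stood for a gene, which left 22180 genes. Dim genes were kept.

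All 12 arrays and all genes entered 1 fit of group means with limma 3.58.1 in R 4.3.3, using the functions lmFit and eBayes. The 5 comparisons were paraquat against sham within wt and within KO, KO against wt with sham and with paraquat, and the KO response minus the wt response. Tests were 2-sided, with Benjamini-Hochberg adjustment over all genes and a threshold of 0.05. Values of all arrays were given for the immunoproteasome genes and their counterparts, the activators and, in each comparison, up to 6 members past the threshold with the smallest p. Other called members were given by fold and p, and from each pathway list up to 4 genes past a threshold in order of p. The members and lists were chosen with earlier results of these data known.

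Same-numbered arrays did not deviate together (18 pairs, correlation -0.073 to 0.09), so the numbers were not taken as pairs. Alternatives were 2 rescalings, 16 added to the signal, a filter on dim genes, the mean over probe sets, a variance trend, array weights, only the arrays compared, a replicate block, leaving out wt sham 2 and KO paraquat 3, and leaving out each array in turn.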

Additional observations from a re-analysis of the deposited data

Results flagged for a closer look

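In 6 of the genes measured for this description, members, pathway genes and markers together, the paraquat response differed between the genotypes by limma's test of the difference itself, with adjustment over all 22180 genes. Of all genes 2.29% passed this test. The total of genes described is not given here, so the 6 are not read against that share. Psmc2 had a KO response minus wt response of 0.70 (log2, adjusted p = 0.0438), with paraquat changes of -0.77 in wt and -0.07 in KO. This call held in only 4 of the 12 fits that left out 1 array. For Uba6 the difference was 0.59 (adjusted p = 0.0158), for Ubqln2 0.77 (adjusted p = 0.00604) and for Nfe2l1 0.99 (adjusted p = 0.000745). Mafg, a small Maf partner of NRF1, had 0.54, with an adjusted p that rounds to the threshold of 0.05. For Cd68 the difference was -0.59 (adjusted p = 0.0363), with a smaller rise in KO than in wt.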

How the results depend on the processing

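Counts of called members that moved by more than 1.5 times are given here. The share of all genes called under each alternative is not given beside the counts of this section. A move can therefore not be read as particular to the members. For paraquat in KO (6 members) the count was 12 with 16 added to the signal, 12 with the filter on dim genes, 11 with a variance trend and 1 with only the arrays compared. For KO against wt with sham (5 members) it was 2 after centring on the array median, 0 with only the arrays compared (limma, 9 at an unadjusted p under 0.05), 2 with the replicate block and 1 without wt sham 2 and KO paraquat 3. For the difference between responses (1 member, Psmc2) it was 0 with the mean over probe sets, 0 with the replicate block and 0 without wt sham 2 and KO paraquat 3, with 4, 4 and 2 members at an unadjusted p under 0.05. Leaving out each array in turn gave 6 to 13 members for paraquat in wt, 1 to 7 for paraquat in KO, 1 to 5 for sham, 0 to 0 under paraquat and 0 to 1 for the difference. With the replicate block the counts for paraquat were 11 in wt and 5 in KO. Of the values of single named members under the alternatives, 1306 kept their side of the threshold, 109 lost the threshold and 10 gained it. The 1306 include members not called in the main fit, which could not lose the threshold. The 109 losses thus fall on called members alone, and the 1306 are no measure of how stable the calls were. A change of sign between fits that both missed the threshold was counted as kept. Of the 96 alternative values of the differences between inducible and constitutive genes, 3 had the other sign. The 96 include Psmb9 minus Psmb6. They also include the mean over probe sets, which could not move a value because none of these genes has a second probe set. The number of arrays, rounding of dim signals and unmeasured background limit the precision.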
